A study of Mus musculus with 25 samples.

Results

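The transcripts described here are those of 7 cell surface scavenger receptors, Msr1, Marco, Colec12, Cd36, Scarb1, Olr1 and Lrp1, chosen by name from the 22439 gene symbols that the count tables share. All 7 were found in the tables of all 25 libraries. The study profiled single myeloid cells sorted from mouse spinal cord lesions by droplet RNA sequencing (10x Genomics, 3' end), at days 1, 2, 3, 10 and 21 after injury (D1 to D21) and after laminectomy alone (control). Of the 30958 cells, the deposited annotation places 13289 among microglia, 12841 among macrophages (monocytes included), 2712 among dendritic-like cells and 2116 among neutrophil-like cells. These names were read from numeric codes and marker genes.

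All mice carried Cx3cr1CreERT2, an allele that places an inducible Cre under the promoter of Cx3cr1, a gene of microglia and of many monocytes. In 13 libraries the mice also carried R26tdTomato, a Cre reporter of red fluorescence. From these, 5 libraries were sorted as RFP+/YFP+ (called resident here), 7 as RFP-/YFP+ (infiltrating), and 1 library of D3 has a title and a sort label that disagree. The other 12 libraries came from Cx3cr1CreERT2 mice without the reporter and were sorted as YFP+ (mixed). Strain and sort scheme therefore cannot be told apart between mixed libraries and the rest. There were 2 control libraries, 5 of D1, 4 of D2, 7 of D3, 5 of D10 and 2 of D21, from males or females; ages were not given in the sources used here. Each library pooled the tissue of a few mice at most, and a p-value below measures the spread between such libraries. In the test of microglia over time D21 has 1 library, so p-values at D21 rest on the spread at other times.

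Scavenger receptors bind modified lipoproteins, lipid, apoptotic cells and cell debris and carry them into phagocytes. After spinal cord injury, microglia and blood-derived macrophages meet large amounts of myelin debris, which is rich in cholesterol and other lipids, and several of these receptors are known from foam cells, the lipid-laden macrophages of atherosclerosis. Msr1, Marco and Colec12 are class A receptors with a collagen-like stalk. Cd36 and Scarb1 are class B receptors that handle long-chain fatty acids, oxidized lipoproteins and high density lipoprotein. Olr1 (LOX-1) is a lectin-like receptor for oxidized low density lipoprotein, and Lrp1 is a giant endocytic receptor of the low density lipoprotein receptor family with ligands that include apolipoprotein E and myelin basic protein.

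On GRCm38, with the GENCODE annotation of that build, Msr1 (ENSMUSG00000025044.16) lies on chromosome 8 from 39581685 to 39642673, Marco (ENSMUSG00000026390.7) on chromosome 1 from 120474538 to 120505024, and Olr1 (ENSMUSG00000030162.14) on chromosome 6 from 129485244 to 129507165. The 2 class B genes share chromosome 5, with Cd36 (ENSMUSG00000002944.15) from 17781690 to 17888801 and Scarb1 (ENSMUSG00000037936.15) from 125277087 to 125341094. Lrp1 (ENSMUSG00000040249.15) lies on chromosome 10 from 127538161 to 127621148 and all 6 are on the minus strand. The annotation places Gm16217 across Lrp1 on the opposite strand and Gm42633 across Scarb1 on the same strand, and whether the counting used strand is not given in the sources used here.

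RefSeq promoter windows of 300 bases (250 before the annotated start and 50 after it, GRCm38.p6) were at hand for 4 of the 7 genes. The windows of Cd36 and Olr1 are printed as an example of each course in microglia: both encode receptors for oxidized lipoprotein, Cd36 passed the test against control at all 5 times and Olr1 at none. They were searched on both strands for TGANTCA (AP-1), GAGGAAG (PU.1), AGGTCA (a core motif of nuclear receptors) and CACGTG (E-box). Matches are in capitals.
Cd36, chr5:17835847-17836146, minus strand: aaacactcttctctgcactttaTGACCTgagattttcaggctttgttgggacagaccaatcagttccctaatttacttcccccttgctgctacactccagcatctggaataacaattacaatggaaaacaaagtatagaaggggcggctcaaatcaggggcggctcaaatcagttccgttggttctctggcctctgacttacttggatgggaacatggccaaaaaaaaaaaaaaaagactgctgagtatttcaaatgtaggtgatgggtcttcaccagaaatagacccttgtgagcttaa
Olr1, chr6:129507116-129507415, minus strand: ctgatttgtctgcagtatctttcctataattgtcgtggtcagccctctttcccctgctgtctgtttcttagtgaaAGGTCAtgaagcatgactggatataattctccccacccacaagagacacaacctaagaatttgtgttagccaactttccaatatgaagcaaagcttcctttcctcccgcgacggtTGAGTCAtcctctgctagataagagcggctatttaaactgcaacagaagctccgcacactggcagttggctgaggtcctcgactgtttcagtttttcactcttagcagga

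The Cd36 window held 1 AGGTCA, on the opposite strand (read as TGACCT) and starting at base 23. The Olr1 window held AGGTCA at base 76 and, 60 bases before the start of the gene, TGAGTCA at base 191. Of the other windows, that of Marco held GAGGAAG at base 105 and that of Lrp1 held none of the 4 motifs. Among all 32851 RefSeq promoter windows, 7.81% held TGANTCA, 13.6% GAGGAAG, 16.3% AGGTCA and 7.15% CACGTG, so each motif is common. The Cd36 window belongs to 1 annotated start inside the gene's span, and other starts were not searched. No binding was measured.

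The libraries held 155 to 3800 cells, 486649 to 33204422 UMIs (unique molecular identifiers, 1 count each) and a median of 1577 to 11233 UMIs per cell. Microglia had a median of 3062 UMIs per cell and macrophages 9144. The deposited codes were named from marker genes, so these counts describe the names and do not check them. Microglia met 9 of 9 microglial markers, macrophages 9 of 9 macrophage and 5 of 8 monocyte markers. Dendritic-like cells met 6 of 8 dendritic and 2 of 8 monocyte markers. Neutrophil-like cells met 7 of 7 neutrophil, 2 of 8 monocyte and 3 of 4 erythroid markers. All 1887 control cells form deposited cluster 1, which holds no other cell, so that cluster and the control condition cannot be told apart. A 16-letter cell barcode occurred in more than 1 library for 127 barcodes (254 cells). The libraries were sequenced in 7 pools that overlap the time points unevenly, and D1 and D10 macrophages, like D3 and D10 macrophages, share no pool, so that for macrophages of D10 the time cannot be told apart from the pool. The same holds in microglia for D1 against control, D21 against control and D3 against D1, since the D1 and D21 libraries of the microglial test make up a pool of their own. D3 and D10 microglia share no pool either, and a fit with the pool as a term rests there on the D2 libraries that link their pools.

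Levels below are CPM, the counts of a gene scaled to the summed UMIs of 1 cell type in 1 library, in sums of at least 20 cells. Differences are log2 changes from edgeR's quasi-likelihood test on those sums, with its Benjamini-Hochberg adjusted p over all genes tested and 0.05 as the threshold. The sums behind the microglial test came from 17 libraries (resident and mixed) and those behind the macrophage test from 15 (infiltrating and mixed). In microglia, the fitted changes and the CPM ratios differ. Without the TMM scaling of edgeR the median of all genes against control shifted by -0.72 (log2) at D1, by -0.39 and -0.59 in the D2 and D3 libraries, and by -0.59 and -0.86 in those of D10 and D21.

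Against control, Msr1, Cd36 and Colec12 rose in microglia. Marco is kept out of the counts that follow, because it had 0 counts in controls and passed the filter on low counts only through its D1 libraries. At D1, 2 of the other 6 receptors rose (Msr1 and Cd36), where 23.9% of the 10801 genes tested rose. At D2 it was 3 of 6 (Msr1, Cd36 and Colec12), where 17.6% of all genes rose, and these 3 were also the ones that rose at D3 (20.1% of all genes), D10 (8.06%) and D21 (6.12%). None of the 6 passed as lower at any time, while 22.7%, 12.2%, 17.6%, 2.22% and 0.861% of all genes did from D1 to D21 in order. The comparisons with control share the same 2 control libraries.

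**Figure D1:**
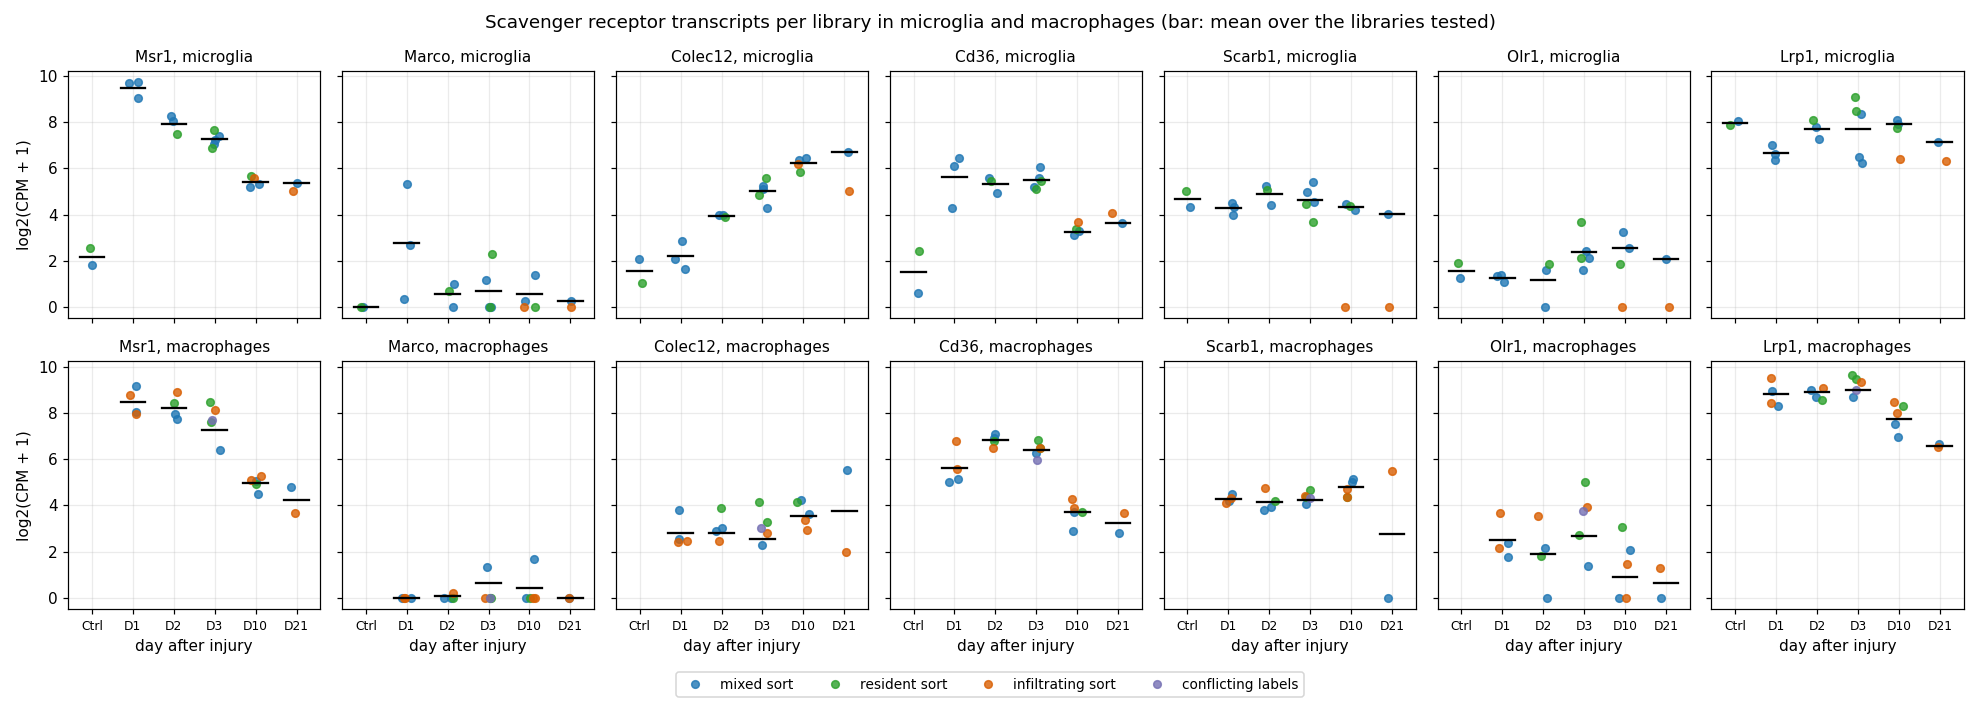
Each point is 1 library, with log2(CPM + 1) on the y axis and the time after injury on the x axis, for microglia (top) and macrophages (bottom); colours give the sort and the bar is the mean of the plotted values of the libraries used in the test. In microglia, Msr1 is highest at D1 and Colec12 is highest in the mixed library of D21; there are no control macrophages.

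Msr1 encodes the class A macrophage scavenger receptor (SR-A, CD204), which takes up acetylated and oxidized low density lipoprotein. In control microglia it stood at 2.50 and 4.86 CPM. It reached 527, 831 and 850.1 CPM in the 3 libraries of D1, then 304, 267 and 177 CPM at D2. The 5 libraries of D3 held 169, 133, 149, 115 and 204 CPM, those of D10 35.7, 38.8 and 49.7 CPM, and the single one of D21 40.7 CPM. All libraries after injury lay above both controls. The D1 libraries lay above all others, those of D2 and D3 overlapped each other, and those of D10 and D21 lay below both.

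The log2 change of Msr1 against control was 8.53 (SE 0.52, edgeR adjusted p 2.43e-08) at D1. It was 6.55 (SE 0.48, edgeR adjusted p 2.98e-07) at D2 and 6.13 (SE 0.47, edgeR adjusted p 3.43e-07) at D3. At D10 it was 4.20 (SE 0.45, edgeR adjusted p 1.38e-05) and at D21 4.43 (SE 0.52, edgeR adjusted p 3.87e-05). The fall between times was tested too: Msr1 fell by 2.40 from D1 to D3 (SE 0.26, edgeR adjusted p 2.18e-05) and by 1.93 from D3 to D10 (SE 0.30, edgeR adjusted p 0.00144). Of the 6 receptors other than Marco, 2 passed from D1 to D3 (Msr1 and Colec12) and 3 from D3 to D10 (Msr1, Cd36 and Colec12), where 18.8% and 6.88% of all genes passed.

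The rise of Msr1 was also seen inside single sequencing pools. In the pool that holds control and D10 mixed libraries, Msr1 went from 2.50 CPM to 35.7 and 38.8 CPM. In the pool of the resident control library it went from 4.86 CPM to 177 CPM at D2 and 49.7 CPM at D10. The 3 D1 libraries shared a pool with the D21 mixed library (40.7 CPM), so the D1 level stood far above D21 within that pool. With the pool as a term, the log2 change from D3 to D10 was -0.94 and no longer passed (edgeR adjusted p 0.973). At equal depth the rise at D10 against control did not pass either (log2 change 2.65, edgeR adjusted p 0.116).

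Per cell, the share of microglia with at least 1 Msr1 UMI was also highest at D1. After each cell was thinned to 1000 UMIs, 0.159% of 1887 control microglia held one (95% Wilson interval 0.0541% to 0.466%), against 39.8% of 3316 at D1 (38.2% to 41.5%). It was 17.0% in D2 and 12.5% in D3 cells, and 2.87% and 2.96% in those of D10 and D21. Without thinning, the shares were 1.11% in control, 68.5% in D1, 40.8% in D2, 23.3% in D3, 10.6% in D10 and 12.1% in D21 microglia. Among 2088 neutrophil-like cells, which should hold little Msr1, 1.72% held a UMI after the same thinning (median depth before thinning 2154 UMIs, against 3062 in microglia). These cells came from libraries after injury, since control libraries held none, so their share sets no background for controls. Intervals cover counting error only.

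Marco encodes the macrophage receptor with collagenous structure, a class A receptor best known from alveolar and marginal zone macrophages. It had 0 counts in both control libraries, and at D1 the 3 libraries held 25, 1 and 166 UMIs, that is 5.47, 0.285 and 38.5 CPM. Of these 166 UMIs in replicate 3, 119 lay in 1 cell of the 10 cells with Marco among 1321 microglia. Pooled over D1, the level of 15.5 CPM was at least 38.5-fold higher than the limit that 0 counts allow in controls (3 counts over both libraries, 0.403 CPM), and at least 14.6-fold higher without that 1 cell. Without the whole of replicate 3 it was 3.22 CPM (26 counts), at least 7.99-fold higher, and the 0.285 CPM of replicate 2 lies below that limit. These levels are a description, with no test.

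After D1, Marco counted 7 UMIs over the 3 libraries of D2, 4 over the 5 of D3, 8 over the 3 of D10 and 1 in that of D21. The 10 Marco cells of D1 mixed replicate 3 fell in cluster 5 (7 cells) and cluster 2 (3 cells). Their pooled Msr1 level was 1047 CPM, against 849 CPM in the library's other 1311 microglia.

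In macrophages Marco was listed with 0 counts at D1 and D21, 1 count at D2 and 2 at D10. All 33 of its D3 counts in the tested libraries came from D3 mixed replicate 3, where 26 of 3019 macrophages held it (0.861%, 95% Wilson interval 0.588% to 1.26%), with at most 3 UMIs in a cell. Dendritic-like and neutrophil-like sums of at least 20 cells held none. Marco did not pass the filter on low counts in the macrophage, sort and cell type tests and has no test there.

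Colec12 encodes collectin-12, also called scavenger receptor with C-type lectin, which binds oxidized lipoprotein and sugars. Its gene (ENSMUSG00000036103.9) is on chromosome 18, where 7 other gene models overlap it, none of them among the counted gene symbols. Its time course in microglia ran the other way from that of Msr1. Controls held 3.22 and 1.08 CPM and the D1 libraries 3.28, 6.27 and 2.09 CPM, so these 2 times overlapped. The level was 15.04, 14.8 and 13.7 CPM at D2, and 18.6, 37.1, 34.0, 27.8 and 47.2 CPM at D3. At D10 it was 87.2, 81.3 and 56.8 CPM, and at D21 102 CPM. From D1 on, these resident and mixed libraries of successive time points did not overlap. The 41 microglia of the infiltrating D21 library, which took part in no test over time, held 31.2 CPM (4 counts), within the D3 range.

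The log2 change of Colec12 against control was 1.18 at D1 (SE 0.57, edgeR adjusted p 0.0985), which did not pass. It did pass without Ctrl mixed replicate 1 (2.49, edgeR adjusted p 0.0431), without D1 mixed replicate 3 (1.52, edgeR adjusted p 0.0394) and without the sex term (1.27, edgeR adjusted p 0.0481). At D2 it was 2.84 (SE 0.53, edgeR adjusted p 0.00106) and at D3 4.24 (SE 0.52, edgeR adjusted p 2.49e-05). In D10 libraries the change reached 5.39 (SE 0.53, edgeR adjusted p 5.28e-06) and in that of D21 6.22 (SE 0.59, edgeR adjusted p 3.3e-06). In the mixed libraries alone the D3 and D10 changes missed the threshold (4.07 and 5.53, edgeR adjusted p 0.066 and 0.0594). Colec12 also rose from D1 to D3 (log2 change 3.06, SE 0.39, edgeR adjusted p 9.33e-05). The rise from D3 to D10 was 1.15 (SE 0.31, edgeR adjusted p 0.0385). That last call was lost with 7 of the libraries left out in turn (D1 mixed 1, D3 mixed 1 and 2, D3 resident 1, D10 mixed 1 and 2, D10 resident 1), and with the pool as a term (log2 change 0.06, edgeR adjusted p 1). It was lost too at equal depth, without cluster 2, in the mixed libraries alone and with a sort term (edgeR adjusted p 0.164, 0.0874, 0.0823 and 0.0525).

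Within single pools Colec12 rose as well. It went from 3.22 CPM in the mixed control to 87.2 and 81.3 CPM at D10 in 1 pool. In another it went from 1.08 CPM in the resident control to 13.7 CPM at D2 and 56.8 CPM at D10, and in the pool of the D1 mixed libraries from 2.09 to 6.27 CPM at D1 to 102 CPM at D21. The summed level of 9 macrophage markers in the microglial sums moved with it: 419 to 461 CPM in controls, 893 to 1204 and 888 to 1155 in D1 and D2 libraries, 1674 to 2160 in those of D3, 2213 to 3429 in those of D10 and 4470 in that of D21. The sum in macrophages was 13580 to 37150 CPM. Its part in the result was not tested. Thinned to 1000 UMIs, 0.318% of control microglia held Colec12, as did 0.151% and 1.62% of D1 and D2 cells, 3.25% of D3, 6.75% of D10 and 8.05% of D21 cells, against 0.0958% of neutrophil-like cells. Without thinning the share was 0.954% in control, 1.11% in D1 and 26.0% in D21 microglia, and 0.378% in neutrophil-like cells.

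**Figure D2:**
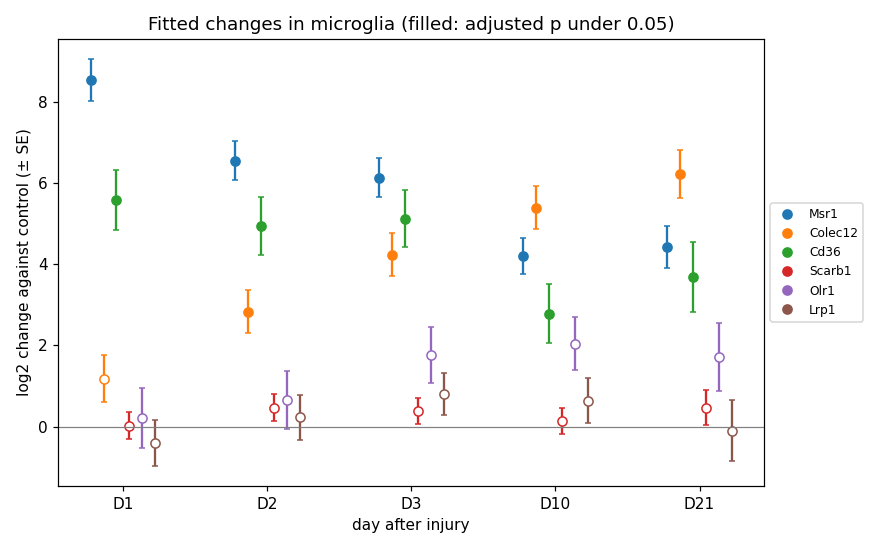
Log2 change against control in microglia (y axis, ± SE from the fit) by time after injury (x axis) for 6 receptors; filled points passed an adjusted p of 0.05. Msr1 falls from 8.53 to 4.20 between D1 and D10 while Colec12 goes from 1.18 to 5.39; Marco is left out because its controls hold 0 counts.

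Cd36 encodes a class B receptor that takes up oxidized lipoprotein and long-chain fatty acids and binds apoptotic cells. Control microglia held 0.536 and 4.32 CPM (3 and 8 counts). D1 libraries held 87.5, 67.0 and 18.8 CPM, those of D2 47.1, 29.6 and 42.7 CPM, and those of D3 47.4, 65.8, 35.2, 33.8 and 43.3 CPM. Levels were 7.56, 8.87 and 9.31 CPM at D10 and 11.5 CPM at D21. All libraries after injury were above both controls, the D1, D2 and D3 libraries overlapped, and D10 lay below all of them.

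Cd36 had a log2 change against control of 5.58 in D1 libraries (SE 0.73, edgeR adjusted p 2.65e-05), 4.94 in those of D2 (SE 0.73, edgeR adjusted p 0.000158) and 5.13 in those of D3 (SE 0.71, edgeR adjusted p 6.55e-05). It was 2.78 at D10 (SE 0.73, edgeR adjusted p 0.0192) and 3.68 at D21 (SE 0.86, edgeR adjusted p 0.012). The calls at D10 and D21 were lost without the mixed control library (log2 changes 1.58 and 2.30, edgeR adjusted p 0.407 and 0.347), which holds the lower of the 2 control values, and that at D10 also without D10 resident replicate 1 (edgeR adjusted p 0.082). The D3 call was lost with the pool as a term (3.62, edgeR adjusted p 0.275), and that of D10 in the mixed libraries alone (5.28, edgeR adjusted p 0.191). At equal depth the calls of D2, D10 and D21 were all lost (2.82, 1.13 and 2.48, edgeR adjusted p 0.0633, 0.664 and 0.419). Within single pools, Cd36 went from 0.536 CPM in the mixed control to 7.56 and 8.87 CPM at D10, and from 4.32 CPM in the resident control to 42.7 CPM at D2 and 9.31 CPM at D10. Cd36 fell from D3 to D10 by 2.35 (log2 change -2.35, SE 0.48, edgeR adjusted p 0.01), and that call was lost without D10 mixed replicate 1 or 2 (edgeR adjusted p 0.0747 and 0.1), with the pool as a term (log2 change -0.66, edgeR adjusted p 1) and in the mixed libraries alone (edgeR adjusted p 0.0729).

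Scarb1 encodes SR-BI, the receptor for high density lipoprotein that moves cholesterol between cell and particle. It showed no change that passed the test in microglia at any time. Controls held 19.1 and 31.8 CPM, D1 libraries 18.8, 21.7 and 14.9 CPM, D2 20.1, 37.0 and 32.1 CPM, D3 41.2, 30.4, 22.6, 11.9 and 21.2 CPM, D10 20.8, 17.5 and 19.5 CPM, and D21 15.5 CPM. The ranges overlapped at all times with more than 1 library. Its log2 changes against control lay between 0.02 and 0.47, with SEs from 0.32 to 0.43, and edgeR adjusted p from 0.296 to 0.967.

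Olr1 was low in microglia, at 1.43 and 2.70 CPM in controls. It was 1.14 to 1.63 CPM in D1 libraries, 0 to 2.69 CPM in those of D2, 2.06 to 11.9 CPM in those of D3, 2.66 to 8.64 CPM in those of D10 and 3.27 CPM in that of D21. Each D3 library held at most 7 counts. Its log2 change against control was 1.77 at D3 (SE 0.69, edgeR adjusted p 0.0507) and 2.04 at D10 (SE 0.65, edgeR adjusted p 0.0549), just short of the threshold, and several alternatives moved it below, among them leaving out D10 resident replicate 1 (edgeR adjusted p 0.0288 and 0.0399).

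Lrp1 passed the test against control at no time in microglia. Controls held 261 and 230.3 CPM and the 3 D1 libraries 128, 82.4 and 98.9 CPM, below both controls. The fitted log2 change at D1 was -0.39 (SE 0.57, edgeR adjusted p 0.598), and without TMM scaling -1.11 (edgeR adjusted p 0.11), so the call was the same on both scales while the size was not. D2 libraries held 155, 222 and 268 CPM, D10 libraries 275, 239 and 212 CPM, and D21 138 CPM.

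At D3 the 5 microglial libraries split in Lrp1. Mixed replicates 1 and 2 held 88.6 and 74.3 CPM, and mixed replicate 3 and the 2 resident libraries held 323, 536 and 353 CPM. The low 2 form a pool of their own and have the lowest totals of all libraries (486649 and 595535 UMIs); what part this has in their level was not tested. Without mixed replicate 1 or 2, the rise of Lrp1 from D1 to D3 passed (log2 change 1.41 and 1.51, edgeR adjusted p 0.0261 and 0.0136), while with all 5 libraries it did not (1.19, SE 0.47, edgeR adjusted p 0.0829). With all libraries it passed by DESeq2 (adjusted p 0.0458) and by edgeR without the filter on low counts, without the sex term or at equal depth (adjusted p 0.0237, 0.047 and 0.0301).

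In macrophages there was no control, since no control library held such cells, and D1 served as the reference. At D2 and D3, 0 of 6 receptors tested differed from D1, and 0% of all 8577 genes did by edgeR. In the mixed libraries alone, 2 receptors passed at D3, Cd36 as higher (log2 change 1.77, edgeR adjusted p 0.0179) and Msr1 as lower (-1.85, edgeR adjusted p 0.0296). At an unadjusted p under 0.05 there were 123 genes at D2 and 612 at D3, among them Msr1 at D3, and DESeq2 called 0 and 5. Olr1, with a median of at most 3 counts per library at D10 and D21, is left aside in what follows. At D10, 2 of the other 5 receptors had fallen (Msr1 and Cd36), where 7.04% of all genes had. At D21 it was 2 of 5 (Msr1 and Lrp1), where 1.61% had, and between D3 and D10 2 of 5 fell (Msr1 and Cd36), where 0.583% of all genes fell. None rose at these steps, where 7.31%, 1.95% and 0.0933% of all genes did in the same order.

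The makeup of the macrophages changed with these falls. The summed level of 7 border macrophage markers was 426 to 6235 CPM in D1 libraries and 78.8 to 154 CPM in those of D10. Clusters 8, 11 and 12 held sums of 7438570, 15395969 and 6903678 UMIs at D1 and none of at least 20 cells in a library at D10, when cluster 9 held 4503259 UMIs. In cluster 9 itself, Msr1 was at 230.3 CPM in its 1 library of D1 and at a mean of 29.3 CPM in 3 libraries of D10. The part of this makeup in the falls was not tested.

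Msr1 in macrophages stood at 248 and 429.7 CPM in the 2 infiltrating libraries of D1 and at 259 and 579 CPM in 2 mixed ones. D2 libraries held 476, 213 and 249.5 CPM, and the 2 of D3 held 279.6 and 81.8 CPM. At D10 the 4 libraries held 33.4, 38.0, 21.2 and 32.2 CPM, and at D21 the 2 held 11.8 and 26.9 CPM. No library of D10 or D21 reached any library of D1 to D3. Msr1 fell by 3.56 from D1 to D10 (log2 change -3.56, SE 0.45, edgeR adjusted p 0.000543) and by 4.23 to D21 (SE 0.68, edgeR adjusted p 0.00646).

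D1 and D21 mixed libraries shared a pool, in which Msr1 went from 259 and 579 CPM to 26.9 CPM. With the pool as a term the change to D21 was -3.32 (edgeR adjusted p 0.0397). The D21 call of Msr1 was lost without the infiltrating library (log2 change -3.44, edgeR adjusted p 0.168) and in the mixed libraries alone (-3.10, edgeR adjusted p 0.176). The fall from D3 to D10 (log2 change -2.37, SE 0.49, edgeR adjusted p 0.0432) was lost without any 1 of 7 libraries. These were D1 mixed 1, D2 mixed 2, D10 infiltrating 1 and 2 and D10 mixed 1 and 2 (edgeR adjusted p 0.0513 to 0.158), and D3 infiltrating 1 (log2 change -1.72, 1 library of D3 left). That call was lost too with a replicate block, at equal depth, without cluster 2 and with sums of at least 50 cells (edgeR adjusted p 0.0696, 0.0653, 0.0533 and 0.0527).

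Cd36 in macrophages was 46.3, 108, 33.9 and 31.6 CPM at D1, while D2 libraries held 89.3, 136 and 118 CPM and those of D3 88.4 and 76.8 CPM. It was 13.9, 18.2, 6.51 and 12.2 CPM at D10, and 11.8 and 5.97 CPM (8 and 2 counts) at D21. Again no library of D10 or D21 reached the earlier ones. The log2 change from D1 was -2.15 at D10 (SE 0.43, edgeR adjusted p 0.00734) and -2.53 at D21 (SE 0.66, edgeR adjusted p 0.0503), the latter just outside the threshold and inside it by DESeq2 (adjusted p 0.0125). From D3 to D10 it was -2.59 (SE 0.49, edgeR adjusted p 0.0251), lost without D10 infiltrating 2, D10 mixed 1 or D10 mixed 2 (edgeR adjusted p 0.0663 to 0.107).

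Lrp1 in macrophages went from 343.5, 736, 314 and 494 CPM at D1 to 250.3, 352, 184 and 122 CPM at D10 and 91.2 and 98.6 CPM at D21. The D1 and D10 ranges overlapped and those of D1 and D21 did not. The log2 change was -1.01 at D10 (SE 0.38, edgeR adjusted p 0.0864) and -2.11 at D21 (SE 0.53, edgeR adjusted p 0.0422). The D10 change passed in the mixed libraries alone (-1.27, edgeR adjusted p 0.0254) and without D10 infiltrating replicate 2 (-1.45, edgeR adjusted p 0.0412). From D3 to D10 Lrp1 passed as lower in the mixed libraries alone (-1.80, edgeR adjusted p 0.00853). The D21 call was lost without any 1 of 7 libraries (D1 infiltrating 2, D1 mixed 3, D2 mixed 2, D10 infiltrating 1, D10 mixed 1 and either D21 library; edgeR adjusted p 0.0544 to 0.391). It was also lost with the pool as a term (-1.46, edgeR adjusted p 0.384), in the mixed libraries alone (-1.07, edgeR adjusted p 0.647), at equal depth (-1.67, edgeR adjusted p 0.0694) and with a replicate block (-1.89, edgeR adjusted p 0.0631).

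Colec12 in macrophages was low, at 4.29, 4.56, 12.7 and 4.87 CPM at D1 and 9.17, 6.61, 11.4 and 17.8 CPM at D10, and its changes did not pass at D10 (log2 change 1.13, SE 0.68, edgeR adjusted p 0.282) or D21 (2.25, SE 0.88, edgeR adjusted p 0.148). The D21 change passed without D21 infiltrating replicate 1 (3.64, edgeR adjusted p 0.0359). The 2 D21 libraries were far apart, 2.94 CPM in the infiltrating and 44.8 CPM in the mixed one, where the summed microglial markers were at 1866 to 4047 CPM, against 292 to 1263 CPM at D1. Scarb1 (15.9 to 21.2 CPM at D1, 19.6 to 34.2 CPM at D10) did not pass either (edgeR adjusted p 0.47 at D10). Olr1 was at 2.43 to 11.8 CPM at D1 and 0 to 3.25 CPM at D10.

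Where 1 library held both cell types, microglia and macrophages could be compared within it. At D1 to D3, 3 of 6 receptors differed between the types, where 41.5% of 9898 genes did: Cd36 and Lrp1 were lower and Colec12 higher in microglia. At D10 and D21, only Colec12 of the 5 receptors other than Olr1 was higher in microglia (1 of 5, where 7.77% of all genes were), and 0 of 5 were lower, where 8.37% of all genes were. For 0 of these 5 did the difference itself change between early and late, where 12% of all genes passed. At an unadjusted p under 0.05 it was 0 of 5 too, and DESeq2 also called none. The deposited types were made from the same cells' transcripts, so these values describe the types. Depth differed as well, with medians of 3062 and 9144 UMIs per cell.

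Among the 8 early libraries with both types, Cd36 was higher in macrophages in 7, with 88.1 ± 38.6 CPM (SD, n = 8) against 42.3 ± 20.4 CPM in microglia; the exception was D1 mixed replicate 1 (33.9 against 87.5 CPM). The log2 change of microglia against macrophages was -0.97 (SE 0.25, edgeR adjusted p 0.00191). Late, the means were 11.1 ± 4.48 and 10.8 ± 2.86 CPM (n = 6), microglia being higher in 3 of 6 libraries (log2 change -0.07, SE 0.44, edgeR adjusted p 0.959).

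Lrp1 was higher in macrophages in all 8 early libraries, at 499.6 ± 165 CPM against 260.5 ± 144 CPM (log2 change of microglia against macrophages -0.93, SE 0.28, edgeR adjusted p 0.00686). It was higher in macrophages in 3 of the 6 late libraries (log2 change -0.14, SE 0.35, edgeR adjusted p 0.868). The change of this difference was 0.79 (SE 0.45, edgeR adjusted p 0.267), and it passed with sums of at least 50 cells only (1.43, edgeR adjusted p 0.0313).

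Colec12 was higher in microglia in 5 of 8 early libraries and in all 6 late ones. The 3 exceptions were both D1 libraries and D2 resident replicate 1, the last with 13.7 against 13.9 CPM. Early means were 19.7 ± 15.5 CPM in microglia and 9.33 ± 4.66 CPM in macrophages (log2 change 1.42, SE 0.36, edgeR adjusted p 0.00166; with DESeq2 0.99, adjusted p 0.0823). Late means were 71.6 ± 24.99 and 16.7 ± 14.9 CPM (log2 change 2.19, SE 0.36, edgeR adjusted p 2.51e-05).

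Msr1 did not differ between the types by the test, early (log2 change 0.12, SE 0.30, edgeR adjusted p 0.794) or late (0.63, SE 0.44, edgeR adjusted p 0.378). In the 5 mixed early libraries, microglia held 1.07 to 2.04 times the macrophage level, and in the 3 resident ones 0.514 to 0.593 times. Late, microglia were higher in all 6 libraries, 1.21 to 2.65 times. The split by sort is a description seen after the values and was not tested.

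**Figure D3:**
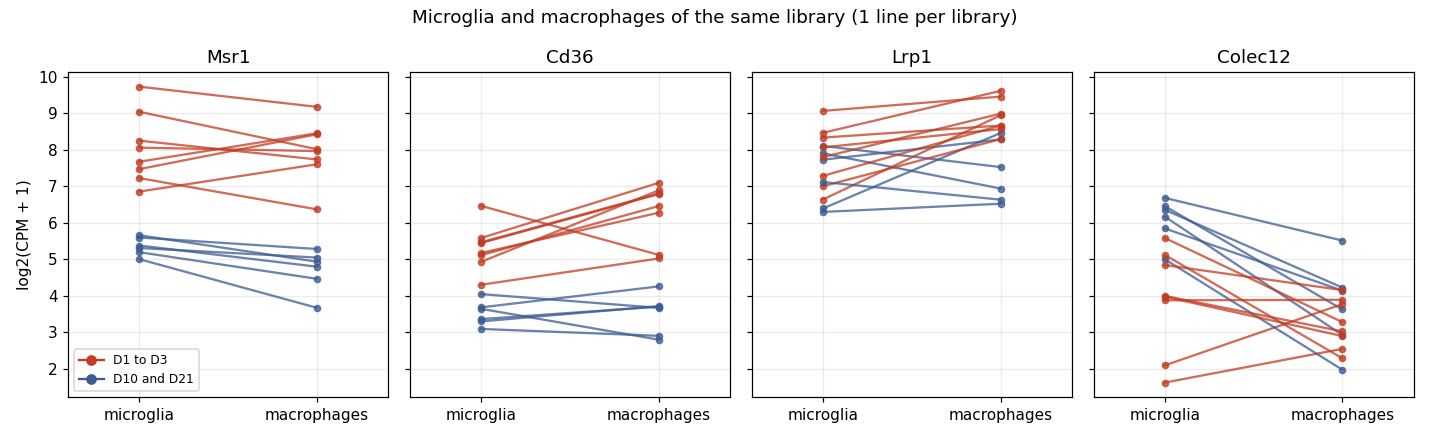
Log2(CPM + 1) in microglia and macrophages of the same library (y axis), 1 line per library, red for D1 to D3 and blue for D10 and D21. For Lrp1 all 8 early lines go up towards macrophages, and for Colec12 all 6 late lines go down.

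Dendritic-like cells held a median of at most 3 counts per library of Cd36, Colec12 and Olr1, which therefore entered the test through macrophages, and their tests are not read. Cd36 stood at 0 to 5.59 CPM with a median of 2.02 CPM over 10 libraries, against 5.97 to 136 CPM with a median of 53.6 CPM over 20 libraries in macrophages. Colec12 stood at 0 to 2.50 CPM, against 2.94 to 44.8 CPM. Of the other 3 receptors, 2 were lower than in macrophages, where 18.9% of all genes were. These were Msr1 (log2 change -2.81, SE 0.33, edgeR adjusted p 1.23e-08) and Lrp1 (-1.81, SE 0.26, edgeR adjusted p 7.55e-07). Scarb1, at 23.9 ± 5.97 CPM (SD, n = 10), was not among them (log2 change 0.17, SE 0.22, edgeR adjusted p 0.597).

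Neutrophil-like cells were as low in Msr1, Cd36 and Colec12, which are given as levels only. Msr1 was 6.86, 33.0, 4.38, 0 and 16.3 CPM in the 5 libraries and Cd36 2.29, 9.13, 0, 0 and 4.45 CPM. Colec12 had 8 counts in all 5. Of the other 3 receptors, 1 was lower than in macrophages, where 31.7% of all genes were lower and the median of all genes was -0.17. This was Lrp1 (log2 change -2.75, SE 0.38, edgeR adjusted p 2.02e-07). Olr1 had its highest mean of the 4 types here, 4.57, 25.3, 17.5, 10.4 and 15.8 CPM, against 0 to 31.5 CPM in macrophages, and did not pass (log2 change 0.71, SE 0.47, edgeR adjusted p 0.208). Over all times, Olr1 was at 14.7 ± 7.78 CPM in neutrophil-like cells, 5.89 ± 7.48 in macrophages, 3.04 ± 2.95 in microglia and 2.20 ± 2.16 in dendritic-like cells, with overlapping ranges. The order of the last 3 changed with time, since dendritic-like cells had the highest mean of them at D2 (5.21 CPM) and microglia at D10 (4.05 CPM).

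Between the reporter sorts, over all cells of a library, only Colec12 of 6 differed, lower in infiltrating libraries (1 of 6, where 5.67% of the 10074 genes tested were lower). The sorts differed in their cells, with microglia making up 67.9% to 100% of the cells of resident libraries and 0.253% to 26.5% of those of infiltrating ones. The part of this makeup in the difference was not tested. The infiltrating libraries of D1 held 3.63 and 4.05 CPM, those of D2 and D3 3.49 and 3.61 CPM, those of D10 8.31 and 10.1 CPM and that of D21 5.38 CPM. The resident ones held 1.08 CPM in the control, 13.5 at D2, 21.0 and 30.9 at D3 and 43.8 at D10. At each time that has both sorts, D2, D3 and D10, the resident values lay above the infiltrating ones. The log2 change of infiltrating against resident was -2.45 (SE 0.34, edgeR adjusted p 0.0042), and -2.34 (adjusted p 0.108) with the D3 library of conflicting labels counted as resident. The other 5 had log2 changes between -0.08 and 0.07, SEs from 0.23 to 0.77 and edgeR adjusted p of at least 0.912.

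The deposited clusters divide the cell types further. Clusters were made from the same transcripts, so no test was made. Clusters 2 and 3 also hold cells coded as macrophages (6.39% and 9.51% of their cells), and their levels pool both types. Over all times, Msr1 was at 358 ± 284 CPM in microglial cluster 5 (n = 12 libraries) and at 49.2 ± 23.6 CPM in cluster 4 (n = 6), and Colec12 at 44.9 ± 50.5 and 62.9 ± 28.7 CPM. The clusters differ in their times, since cluster 5 had 69.5% of its cells at D1 and cluster 4 64.7% at D10. At D10 alone, cluster 5 was higher in both, with Msr1 at 118.5 against 36.0 CPM and Colec12 at 109 against 73.9 CPM. Within a cluster the levels moved with time. In cluster 5, Msr1 was 782 ± 210 CPM at D1 (n = 3), and 330.5 (n = 2), 245 (n = 4), 118.5 (n = 2) and 69.8 CPM (n = 1) over the later times in order. Colec12 in the same cluster was 3.28, 10.5, 39.2, 109 and 134 CPM.

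**Figure D4:**
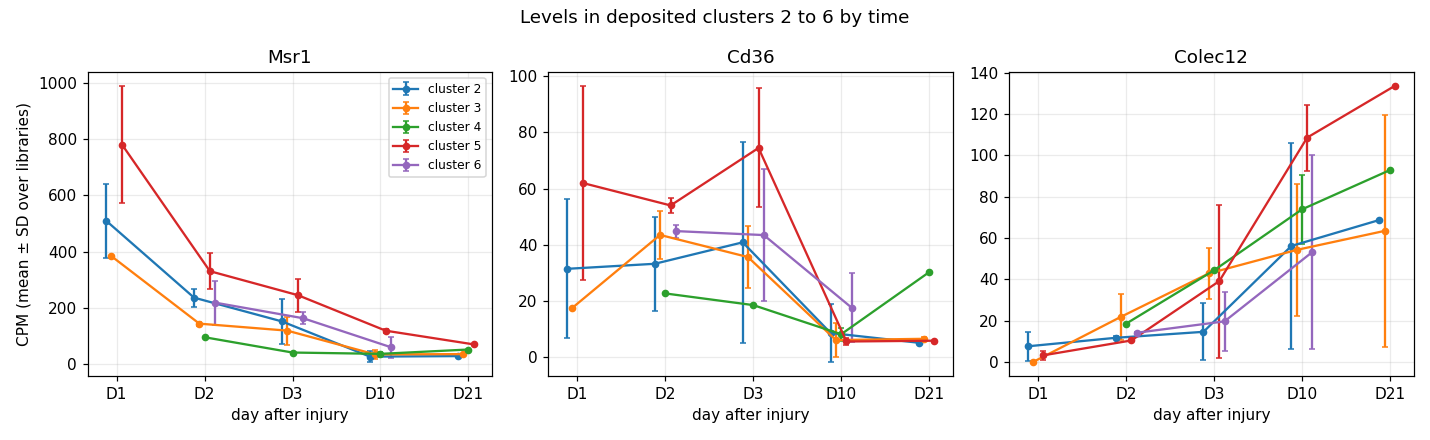
CPM (y axis, mean ± SD over libraries, no bar where 1 library) by time after injury (x axis) of Msr1, Cd36 and Colec12 in clusters 2 to 6, which hold microglia and, in clusters 2 and 3, some macrophages. In cluster 5, Msr1 goes from 782 to 69.8 CPM and Colec12 from 3.28 to 134 CPM between D1 and D21.

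In cluster 3, Msr1 was at 384 CPM in its 1 library of D1, then at means of 144, 119, 34.0 and 35.1 CPM, and Colec12 at 0, 21.9, 42.9, 54.3 and 63.5 CPM over the same times. Cd36 in cluster 5 was 61.97, 53.97, 74.4, 5.53 and 5.81 CPM over these times. In cluster 11, the largest macrophage cluster, Msr1 was 359 CPM at D1, 369 at D2 and 264.5 at D3.

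Macrophage clusters differed in the class B receptors. Scarb1 was highest in cluster 13, at 98.0, 81.8, 93.3 and 98.6 CPM in its 4 libraries, where no other cluster had a mean above 41.6 CPM. Cd36 was also high there (131 ± 59.6 CPM) and in cluster 11 (136 ± 50.1 CPM, n = 10) and low in cluster 12 (15.2 ± 8.08 CPM, n = 6), where Msr1 stood at 295.5 ± 101 CPM. Cluster 13 holds 234 cells. Its leading genes against the other macrophage clusters, named after their values were seen, were Ear2, Cd300e, Pglyrp1, Ace and Adgre4. Border macrophage markers summed to 26.8 CPM there, monocyte markers to 8381 CPM and macrophage markers to 24230 CPM. In cluster 12 the monocyte and macrophage sums were 10920 and 24650 CPM. Cluster 14, 118 cells with a median of 1488 UMIs, had the highest mean of Lrp1 from 2 libraries (1398 ± 1449 CPM), 1 of them at 374 CPM.

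**Figure D5:**
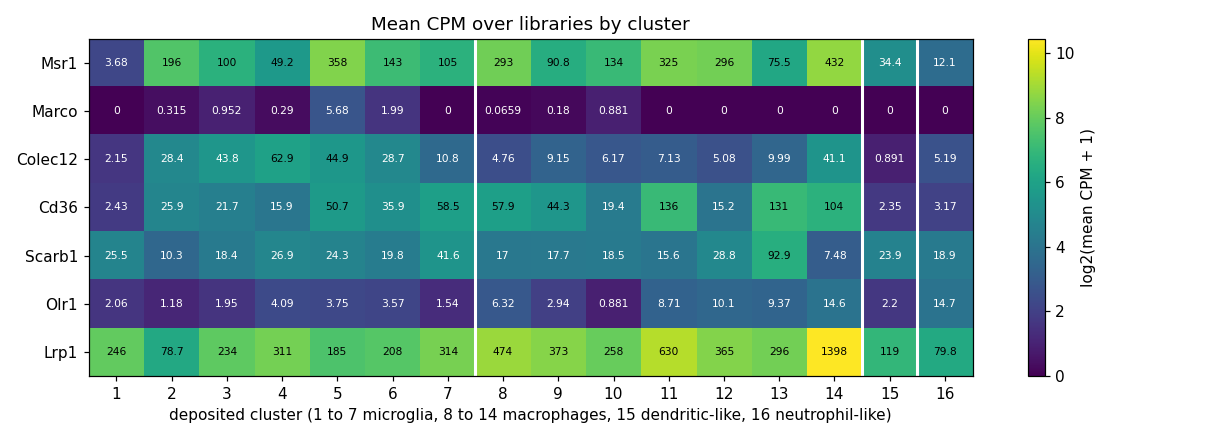
Mean CPM over libraries of each receptor (rows) in each deposited cluster (columns), printed in the cell and coloured by log2(mean CPM + 1). Scarb1 stands at 92.9 CPM in cluster 13, and Cd36 at 136, 15.2 and 131 CPM in clusters 11, 12 and 13.

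Other genes of lipid and debris uptake were read from 4 lists. Of 18 further scavenger receptors, 9 could be tested in microglia. Here and below, a list gene is counted only where both groups have a median above 3 counts per library, since a gene near 0 in one group entered the test through the other. At D1, 4 of 8 rose and 0 fell, with a median log2 change of 1.19, where 23.9% of all genes rose and 22.7% fell. At D10, 3 of 7 rose and 0 fell, with a median of 0.44, where 8.06% and 2.22% did. Cd5l, a secreted protein with scavenger receptor domains made by macrophages, stood at 0 and 0.179 CPM in controls, at 3.71 ± 3.15 CPM in D1 libraries and at 18.2 ± 7.93 CPM in those of D10, given as levels with no fold and no test. In macrophages, 0 of 8 rose and 3 fell from D1 to D10 (7.31% and 7.04% of all genes), most Cd14, a co-receptor for lipopolysaccharide (1098 ± 503 against 87.9 ± 49.1 CPM, -3.75 on the log2 scale, SE 0.91, edgeR adjusted p 0.0165).

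Of 16 genes of the low density lipoprotein receptor family and its adaptors, 12 could be tested in microglia. At D1, 2 of 11 rose and 3 fell (23.9% and 22.7% of all genes), and at D10 2 of 12 rose and 0 fell (8.06% and 2.22%). Dab2, an endocytic adaptor for these receptors, stood at 8.35 ± 5.74 CPM in controls and rose to 279.8 ± 76.5 CPM in D1 libraries (5.93 on the log2 scale, SE 0.54, edgeR adjusted p 1.98e-06) and stood at 60.2 ± 11.5 CPM at D10 (3.57, SE 0.49, edgeR adjusted p 0.000163). In macrophages from D1 to D10, Lrp5 alone rose (log2 change 2.03, SE 0.55, edgeR adjusted p 0.0272) and 2 of 11 fell, where 7.31% and 7.04% of all genes did, Dab2 most (480.5 ± 273 to 37.7 ± 23.7 CPM, -3.68, SE 0.70, edgeR adjusted p 0.00576).

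Of 18 genes of apoptotic cell uptake, 13 could be tested in microglia. At D1, 2 of 12 rose and 5 fell (23.9% and 22.7% of all genes), with a median of -0.79. Tgm2, a transglutaminase, rose (21.4 ± 5.86 against 71.7 ± 6.07 CPM, by 2.81, SE 0.36, edgeR adjusted p 2.35e-05), and Elmo1, which acts downstream of engulfment receptors, fell (292.5 ± 36.8 against 26.4 ± 3.51 CPM, -2.81, SE 0.26, edgeR adjusted p 2.16e-06). At D10, 1 rose and 2 fell (8.06% and 2.22% of all genes), with Axl, a receptor for phosphatidylserine-bound Gas6, at 2.23 (SE 0.65, edgeR adjusted p 0.0351) and Itgav at -1.24 (SE 0.38, edgeR adjusted p 0.0437). In macrophages Axl also rose from D1 to D10 (2.08, SE 0.56, edgeR adjusted p 0.0269), and Thbs1, a secreted ligand of Cd36, fell from 2085 ± 1614 to 7.57 ± 5.17 CPM (-7.92, SE 1.00, edgeR adjusted p 0.000543), 1 of 12 rising and 2 of 12 falling (7.31% and 7.04% of all genes).

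The last list held 12 transcription factors known for scavenger receptor genes. Pparg, a known activator of Cd36, had 1 count in control microglia (a mean of 0.0893 CPM) and stood at 2.85 ± 2.35 CPM in those of D1, with no test read. Of 10 factors, 0 rose and 2 fell in microglia at D1, where 23.9% and 22.7% of all genes did, and Maf fell most, from 584 ± 151 to 45.0 ± 6.66 CPM (-2.81, SE 0.46, edgeR adjusted p 0.000157). At D10, Hif1a alone of 11 passed, where 8.06% of all genes rose (1.97, SE 0.35, edgeR adjusted p 0.00131). In macrophages from D1 to D10, 0 rose and 4 fell (7.31% and 7.04% of all genes), most Nr1h3, which encodes LXR alpha, a sensor of oxidized cholesterol (34.1 ± 21.4 to 6.08 ± 1.92 CPM, -2.47, SE 0.55, edgeR adjusted p 0.0112).

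Between early microglia and macrophages, where 21.4% of all genes were higher and 20.1% lower in microglia, 0 of 10 factors were higher and 5 lower. Nr1h3 was near 0 in microglia, at 1.38 ± 2.28 against 49.5 ± 18.2 CPM in macrophages. Of 7 further scavenger receptors, 0 were higher and 1 lower. Cd163 stood at 0 to 0.77 CPM in microglia and 0.0661 to 55.1 CPM in macrophages, and Cd5l at 0.928 to 131 and 0 to 13.6 CPM. In the lipoprotein receptor family 4 of 12 were higher and 4 lower, with Sort1 higher (1.64, edgeR adjusted p 1.74e-05) and Lrp8 lower (-1.82, edgeR adjusted p 0.000966). In apoptotic cell uptake it was 3 and 3 of 11. Itgb3 stood at 7.92 ± 3.98 CPM in microglia and 0.421 ± 0.791 CPM in macrophages, and Anxa1 at 3.79 ± 5.41 and 272 ± 103 CPM. Genes given here by levels alone were near 0 in one of the types.

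In infiltrating against resident libraries, where 5.02% of all genes were higher and 5.67% lower, 0 of 8 further scavenger receptors were higher and 1 lower (Cd5l, -4.84, SE 0.94, edgeR adjusted p 0.0161). In the lipoprotein receptor family 2 of 12 were higher and 2 lower (Sort1 most, -2.10, edgeR adjusted p 0.00772). Lrp8 had a median of 3 counts in resident libraries and stood at 2.04 ± 1.88 CPM there, against 12.1 ± 7.63 CPM in infiltrating ones. In apoptotic cell uptake 2 of 12 were higher (Anxa1 most, 1.73) and 3 lower (Gas6 most, -4.71), and of the factors 2 of 12 were higher (Pparg most, 1.18, SE 0.29, edgeR adjusted p 0.0358) and 0 lower.

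Across all 54 sums of 1 cell type in 1 library, the pattern most like that of Msr1, the receptors themselves left aside, was that of Txndc17 (Pearson r 0.845 on log2 CPM with 5 CPM added), followed by Ufm1 (0.832) and Pgk1 (0.821). Cd36 was nearest to Hmox1 (0.835), Vps29 (0.829) and Cndp2 (0.811), and Colec12 to Pianp (0.837), Igf1 (0.830) and Apoc1 (0.816). Lrp1 was nearest to Slc17a5 (0.802) and Dync1i2 (0.781), Scarb1 to Cers5 (0.730), Inip (0.691) and Tbck (0.683), and Olr1 to Sgpl1 (0.715), Smcr8 (0.713) and Fndc3b (0.706). Among the receptors themselves, Msr1 and Cd36 ran together (r 0.835), then Cd36 and Lrp1 (0.637) and Msr1 and Lrp1 (0.536). Colec12 had an r of 0.118 with Msr1 and -0.320 with Scarb1. The sums share libraries, cell types and depth, so these values are descriptions.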

How the data were processed

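For every library, the authors deposited a matrix of raw counts (UMIs of each gene in each cell), made with Cell Ranger 3.1.0 on GRCm38 (mm10), per the submitters' processing notes, with a table of each cell's pool, cluster, cell type code and mitochondrial percent. Mitochondrial percent, as deposited, reached 22.7 and was not filtered further. Counts were summed per library and deposited cell type (sums of at least 20 cells) and tested with edgeR 4.0.16 (TMM, filterByExpr, quasi-likelihood, Benjamini-Hochberg over all genes tested) in R 4.3.3, with time and sex as terms, or with the library as a block for cell types. Over 18 comparisons, 115 values of the 7 receptors were fitted. Marco passed the filter on low counts in the microglial test only, and there only through its D1 libraries, so its test is not read. Nor is that of any receptor or list gene with a median of at most 3 counts per library in one of the groups, a limit set after seeing the data. Shares of cells were computed after thinning each cell to 1000 UMIs, which left out 30 microglia and 57 macrophages. Doublets were not called, since the deposited cells carry the authors' own selection.

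The tests were checked on simulated counts: in microglia at D1, 86% of 4-fold and 8% of 2-fold changes in 50 genes each were recovered, and in macrophages at D2 82% and 8%. Of 2-fold changes, 40% were recovered between the sorts and 84% between early microglia and macrophages.

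All members past the filter on low counts were fitted in every comparison, and some without a call are not named one by one. From each list, the gene with the largest change up and down among those past the threshold is named in 5 comparisons. For each receptor tested between cell types, the 3 most alike genes are named. A few genes that these rules pick are not reported here. The receptors and lists were chosen with earlier results of these data known. The alternatives were another scaling, DESeq2 1.42.0, no filter, at least 50 cells, equal depth, no cluster 2, other terms and sorts, each library left out, and 2 settings chosen after seeing the data (library-size scaling without TMM, and Marco without 1 cell).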

Additional observations from a re-analysis of the deposited data

Results flagged for a closer look

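Of 46 groups of 4 to 10 libraries checked for a value far from the rest, 6 held one. The rule was set for about 1 in 20 by chance, a rate that does not hold for groups where most counts are 0, as for Marco. Colec12 in D1 macrophages stood at 12.7 CPM in D1 mixed replicate 1 (3 counts in 28 cells), with the next library at 4.87 CPM. In neutrophil-like cells it was 20.8 CPM in D2 mixed replicate 2, with the next at 2.29 CPM. Olr1 in D3 microglia was 11.9 CPM in D3 resident replicate 1 (6 counts), with the next at 4.40 CPM. Marco stood apart in macrophages of D10 mixed replicate 2 (2.22 CPM, 2 counts, the others at 0), over all cells of D2 infiltrating replicate 1 (0.129 CPM, 1 count, the others at 0) and over all cells of D3 resident replicate 1 (2.10 CPM, 2 counts, with the next at 0.525 CPM).

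The few microglia of 2 infiltrating libraries took part in no test over time. Colec12 stood there at 71.3 CPM at D10 (6 counts) and 31.2 CPM at D21 (4 counts), against at most 3.22 CPM in control microglia. Msr1 stood at 47.6 CPM at D10 and 31.2 CPM at D21 (4 counts each), against at most 4.86 CPM.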

How the results depend on the processing

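Of the 41 receptor values past the threshold, 22 kept their direction and their call under all alternatives run, 19 lost the call under at least 1 (11 of them without 1 library), and 12 others gained one under at least 1. No call reversed direction under the 40 settings. These counts include receptors near 0 in one group, whose tests are not read: Marco in microglia, Olr1 in late macrophages, and 3 receptors each in dendritic-like and neutrophil-like cells. Leaving out 1 library at a time, the number of receptors called in microglia ranged from 2 to 4 at D1, 2 to 4 at D10 and 2 to 3 at D21 against control, and from 1 to 3 between D3 and D10. It ranged in macrophages from 2 to 3 at D10, 1 to 3 at D21 and 0 to 2 between D3 and D10. With all sums thinned to equal depth, 4 receptors could be tested over time and between the sorts and 2 (Msr1 and Lrp1) between cell types. Of these, 1 was called in microglia at D10 and in macrophages at D21 and between D3 and D10, 0 between the sorts, 1 early and 0 late between microglia and macrophages, and 2 each in dendritic-like and neutrophil-like cells. Colec12 was not among those tested between the sorts or the types. With the mixed libraries alone it was 1 in microglia at D10 and between D3 and D10, 2 in macrophages at D3 (Cd36 higher, Msr1 lower) and 0 at D21. Lrp1 passed there as lower at D10 and between D3 and D10. With the pool as a term it was 0 in microglia between D3 and D10 and 1 in macrophages at D21. Counting the conflicting library as resident left 0 between the sorts. Sums of at least 50 cells gave 1 in macrophages between D3 and D10 and 1 (Lrp1) in the change of the type difference, and leaving out cluster 2 gave 1 in macrophages between D3 and D10. The causes were not tested beyond this. Same-numbered libraries did not deviate together (correlations -0.183 to 0.162). With the replicate number as a block, 1 receptor each was called in macrophages at D21 and between D3 and D10, and no other count changed. The split of all calls moved with scaling: in microglia at D1, 51.2% of calls were higher with TMM, 44% with median-of-ratios and 22.6% with library-size scaling (at D21 87.7%, 83.6% and 14.7%), and the calls of the 7 receptors there did not change.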
